A study of Mus musculus with 8 samples.

Results

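Transcript levels of 10 genes of the transforming growth factor-β (TGF-β) pathway were compared between the livers of mice lacking Brap in hepatocytes (Brap LKO) and of their controls (Brap F/F). The genes are the ligands Tgfb1, Tgfb2 and Tgfb3, the receptors Tgfbr1, Tgfbr2 and Tgfbr3, the latent ligand binding protein genes Ltbp1 and Ltbp2, and the feedback genes Smad7 and Skil. They were taken by symbol from the table of 24451 genes, and all 10 passed the minimum for testing, a mean of 5 normalized counts over the 8 livers. Brap encodes a ubiquitin ligase that responds to RAS. The 4 Brap LKO mice carried Brap fl/fl with Alb Cre, a recombinase under the albumin promoter, which is active in hepatocytes. The 4 Brap F/F mice carried Brap fl/fl without Cre, so effects of Cre itself and of the deletion cannot be told apart. All mice were C57BL/6 by their labels, the floxed line having been made on C57BL/6J, and 18 weeks old, and RNA was taken from the left lobe of the liver after a fast of 6 h. A normalized count is the number of reads on a gene divided by a scaling factor of its liver.

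TGF-β ligands are made as precursors, cut by furin-type proteases and secreted in a latent complex in which the propeptide still holds the ligand. LTBP proteins tether that complex to the extracellular matrix, and integrins, proteases or mechanical pulling release the ligand. Released ligand joins the type II receptor TGFBR2 to the type I receptor TGFBR1, a kinase that phosphorylates SMAD2 and SMAD3. These bind SMAD4, enter the nucleus and switch on target genes, among them the inhibitors SMAD7 and SKIL. In liver, hepatic stellate cells, macrophages, endothelium and bile duct cells are known sources of the ligands, and TGF-β is the classical inducer of collagen production by stellate cells.

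Between 26280884 and 33313914 reads were assigned to genes in each liver, and the 10 genes received 4 to 1907 reads per liver, so counting error weighs most on Tgfb2. Whole-gene Brap levels do not check the labels, because the deletion removes only part of the transcript. Brap was measured at 3641 to 4203 normalized counts in Brap LKO and 3994 to 4410 in Brap F/F livers, a difference of -0.07 on the log2 scale (limma, adjusted p = 0.631). Albumin was the most abundant hepatocyte marker in both groups, with means of 1703130 and 2441600 normalized counts, as the tissue label requires. The labels name no series, but the animal numbers were split here at their widest gap into a lower and a higher series. By this split, 3 Brap LKO mice and 1 Brap F/F mouse belong to the lower series and the other 1 and 3 to the higher one. What the series stand for is not given.

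All 10 genes had a higher mean in Brap LKO than in Brap F/F livers, but only Tgfb2 passed the test. Tgfb2 rose 3.69-fold (log2 fold change 1.88 ± 0.331 SE, n = 4 per group; limma, Benjamini-Hochberg adjusted p = 0.0435). In the same fit 102 of 15352 genes, 0.664%, were called higher and 16, 0.104%, lower (0.769% in all), and 48% of genes had a log2 fold change above 0. For 4 of the 10 genes, Tgfb1, Tgfb2, Tgfb3 and Ltbp1, every Brap LKO liver lay above every Brap F/F liver, a pattern seen in 5.48% of all genes tested, while 4.39% lay the opposite way and none of the 10 did. At an unadjusted p under 0.05 in limma, 5 of the 10 genes differed, all of them higher, against 15.8% of all genes in either direction and 9.23% in the higher one. The median log2 fold change of the 10 genes was 0.38, that of all genes -0.01. Scaling every liver to the same total shifted the median of all genes by 0.16 and gave a median of 0.54 for the 10 genes. With that scaling 4 of the 10 genes passed, against 2.99% of all genes called higher. The smallest p that an exact permutation test of 4 against 4 livers allows is 0.0286, over 70 arrangements.

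**Figure D1:**
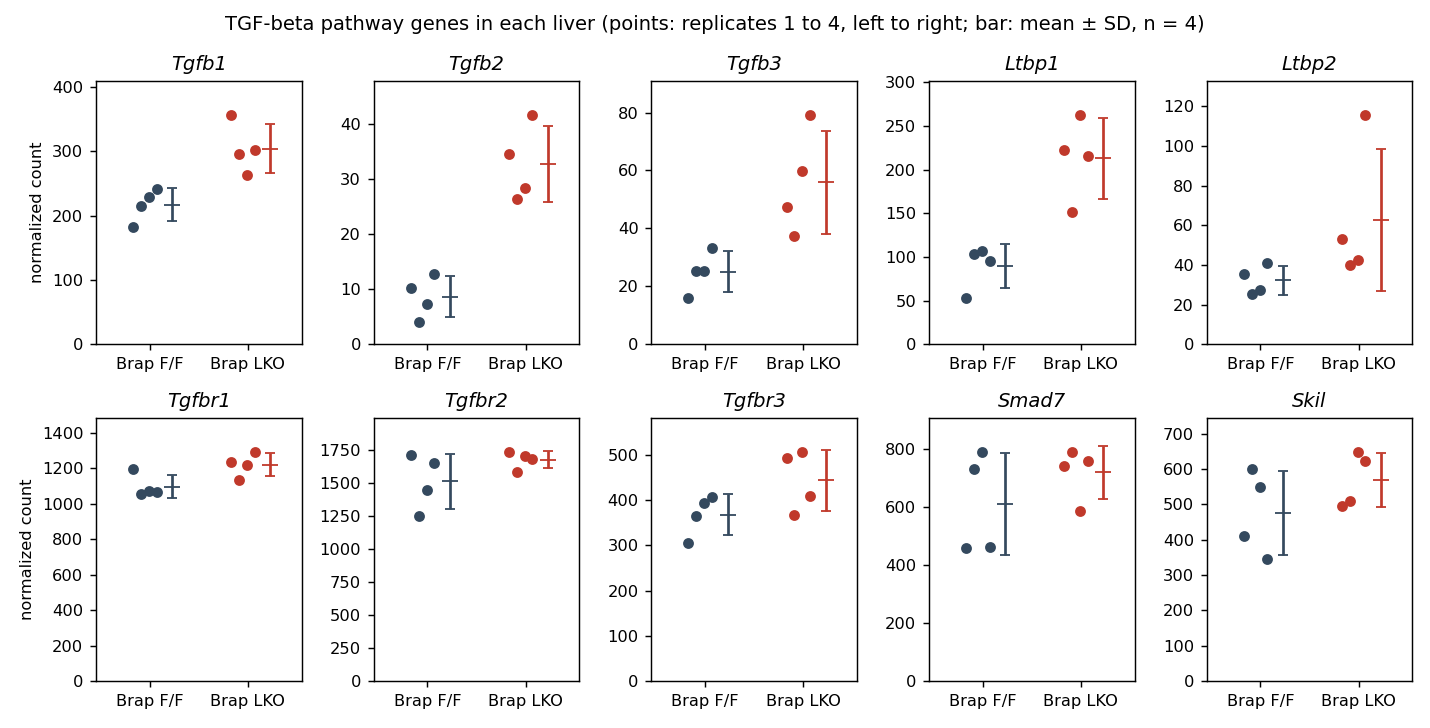
Normalized count (vertical axes, from 0) of each of the 10 genes in the 4 Brap F/F livers (dark) and the 4 Brap LKO livers (red), 1 point per liver and mean ± SD beside them. The Tgfb2 points lie between 26.3 and 41.6 in Brap LKO and between 4.07 and 12.8 in Brap F/F livers, and the groups also stand apart for Tgfb1, Tgfb3 and Ltbp1.

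The sequences before the transcription starts of Tgfb2, Tgfb1 and Ltbp1 are shown because these genes had groups of livers without overlap and an entry in the RefSeq promoter table (GRCm38.p6), which held 6 of the 10 genes. Each is the 250 bases ahead of the start, 5′ to 3′ on the gene's strand, with the motif matches in capitals. The stretches are chr1:186705990-186706239 (minus strand) for Tgfb2, chr7:25686752-25687001 (plus strand) for Tgfb1 and chr17:75005279-75005528 (plus strand) for the first of the Ltbp1 starts.
Tgfb2: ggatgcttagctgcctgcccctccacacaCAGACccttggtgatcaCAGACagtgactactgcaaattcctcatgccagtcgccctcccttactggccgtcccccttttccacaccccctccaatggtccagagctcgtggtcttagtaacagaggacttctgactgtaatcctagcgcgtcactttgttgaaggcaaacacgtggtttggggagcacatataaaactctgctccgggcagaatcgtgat
Tgfb1: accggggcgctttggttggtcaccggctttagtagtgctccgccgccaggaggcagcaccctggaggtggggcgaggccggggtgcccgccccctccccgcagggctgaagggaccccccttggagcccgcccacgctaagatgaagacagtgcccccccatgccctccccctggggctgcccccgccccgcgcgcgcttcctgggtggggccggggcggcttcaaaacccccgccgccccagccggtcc
Ltbp1: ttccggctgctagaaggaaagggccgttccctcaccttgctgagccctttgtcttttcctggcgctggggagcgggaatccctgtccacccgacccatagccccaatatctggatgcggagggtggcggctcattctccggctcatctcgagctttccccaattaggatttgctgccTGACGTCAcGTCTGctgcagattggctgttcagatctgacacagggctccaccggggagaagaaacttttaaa
The letters searched, on both strands, were the SMAD palindrome GTCTAGAC, the SMAD box CAGAC, the TEAD motif CATTCC, the AP-1 motif TGANTCA and the cyclic AMP response element TGACGTCA. None of these motifs contains another. Of 32817 promoter windows of the same length in the table, 0.168% held the palindrome, 42.2% the SMAD box, 12.6% the TEAD motif, 6.75% the AP-1 motif and 1.55% the cyclic AMP response element. The Tgfb2 stretch held the SMAD box at 221 to 217 and at 204 to 200 bases before the start. The Ltbp1 stretch held the cyclic AMP response element at 73 to 66 bases and a SMAD box on the other strand, read as GTCTG, at 64 to 60 bases before the start. The stretch before the other Ltbp1 start in the table, not shown, held 2 SMAD boxes and no cyclic AMP response element. For both Ltbp1 starts, unlike those of Tgfb2 and Tgfb1, the bases that follow were not found near the opening of a GENCODE transcript. The distances given for Ltbp1 are therefore less sure. No match was found in the Tgfb1 stretch, which was the richest of the 3 in G and C at 75.2%, against 53.6% for Tgfb2, 56.8% for Ltbp1 and a median of 52.4% over all windows. The SMAD box was also found before genes whose groups of livers overlapped, not shown. There were 2 matches for Ltbp2, 1 for Tgfbr2, and 1 at the second but 0 at the first Tgfbr1 start. The matches are letters in a window and were not measured as binding.

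Among the ligands, Tgfb2 (ENSMUSG00000039239, mm10 1:186622792-186705989, minus strand) had the lowest level and the largest fold change. It was measured at 34.6, 26.3, 28.3 and 41.6 normalized counts in Brap LKO livers and at 10.3, 4.07, 7.36 and 12.8 in Brap F/F livers. These values rest on 28 to 40 reads per Brap LKO liver and 4 to 13 reads per Brap F/F liver. The groups did not overlap, and the lowest Brap LKO liver stood above the highest control. Group means were 32.7 ± 6.89 and 8.61 ± 3.75 (SD, n = 4), and the 95% confidence interval of the log2 fold change ran from 1.14 to 2.63 (exact permutation p = 0.0286, two-sided). The call depended on single livers: without any of the 4 Brap LKO livers, or without Brap F/F replicate 1, 2 or 3, the adjusted p in limma lay between 0.0678 and 0.150. Without Brap F/F replicate 4 it was 0.0254, and the log2 fold change stayed between 1.61 and 2.09 in all 8 of these fits. An exon of Gm29491, on the opposite strand, covers 124 bases of the Tgfb2 exons, 2.14% of their length, and the use of strand in counting is not given in the sources used here.

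Tgfb1 (ENSMUSG00000002603, mm10 7:25687002-25705077, plus strand), the predominant form in most tissues, was the most abundant ligand. It was measured at 356, 296, 264 and 302 normalized counts in Brap LKO livers and at 182, 215, 229 and 241 in Brap F/F livers. The groups did not overlap, and the distance between them was small, from 241 to 264 normalized counts. Means were 305 ± 38.2 and 217 ± 25.5 (SD, n = 4). The difference, 0.49 on the log2 scale (95% confidence interval 0.21 to 0.76), did not pass the test over all genes (limma, Benjamini-Hochberg adjusted p = 0.108; exact permutation p = 0.0286).

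Tgfb3 (ENSMUSG00000021253, mm10 12:86056745-86079041, minus strand) was measured at 47.4, 37.4, 59.7 and 79.0 normalized counts in Brap LKO livers and at 16.0, 25.4, 25.2 and 33.4 in Brap F/F livers. Again the groups were apart, with Brap LKO replicate 2 nearest to the controls and replicate 4 farthest from them. The log2 fold change was 1.12 with a 95% confidence interval of 0.48 to 1.76 (means 55.9 ± 17.9 and 25.0 ± 7.11, SD, n = 4; limma, Benjamini-Hochberg adjusted p = 0.109; exact permutation p = 0.0286). Exons of Gm37804 and Gm48008 on the opposite strand cover 12.4% of the Tgfb3 exons, and reads from the 2 strands may not have been kept apart.

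Per length, the sum of the 3 ligands was 82.6 ± 9.15 normalized counts per 1000 exon bases in Brap LKO and 51.9 ± 7.22 in Brap F/F livers (SD, n = 4). The livers ranged from 74.4 to 90.6 and from 42.7 to 59.9, so this level, given without a test, did not overlap either. Tgfb1 made up 73.3% of the ligand level in Brap LKO and 83.1% in Brap F/F livers. For Tgfb2 the mean shares were 6.80% and 2.89%, with ranges of 6.11% to 7.95% and 1.38% to 4.15%. The shares of Tgfb3 were 19.9% and 14.0%.

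**Figure D2:**
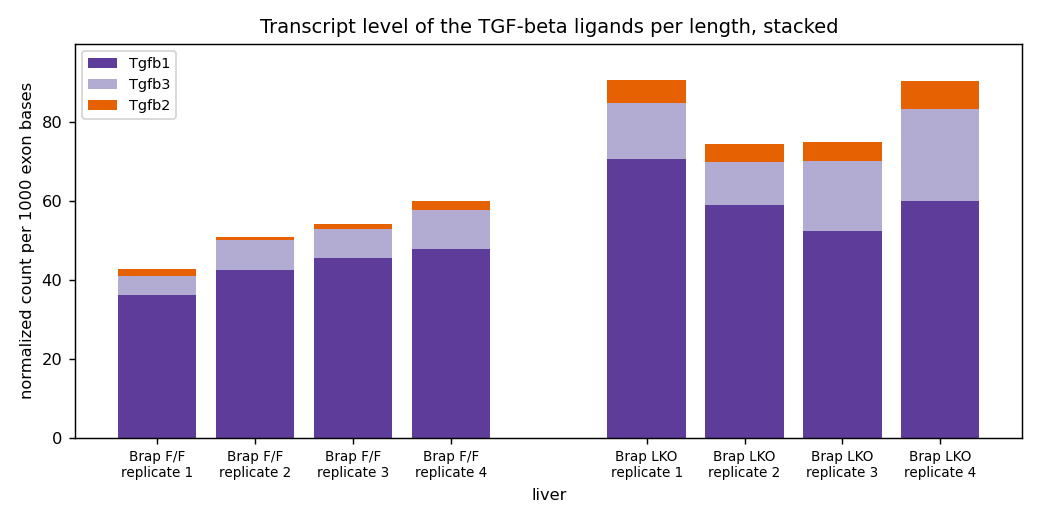
Stacked level of the 3 ligands (vertical axis, normalized count per 1000 exon bases, from 0) in each of the 8 livers. The total lies between 42.7 and 59.9 in Brap F/F and between 74.4 and 90.6 in Brap LKO livers, most of it Tgfb1, and the Tgfb2 segment is the smallest in every liver.

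For 6 pairs of genes, the difference of log2(normalized count + 1) within each liver, a log2 ratio, was compared with two-sided exact permutation tests. The added 1 weighs on the ratios of low genes such as Tgfb2. After adjustment over 6 ratios, a single ratio at the smallest exact p has 0.171, so these tests could hardly pass the threshold. The log2 ratio of Tgfb2 to Tgfb1 was higher by 1.40 in Brap LKO livers, from -3.44 to -2.83 against -5.41 to -4.03 in Brap F/F livers (exact p = 0.0286, Benjamini-Hochberg adjusted 0.171). Tgfb3 relative to Tgfb1 differed by 0.63 (exact p = 0.0857, adjusted 0.229) and Tgfb2 relative to Tgfb3 by 0.76 (exact p = 0.114, adjusted 0.229). Only for the first of these ratios did the groups of livers not overlap. For the receptors, the ratio of Tgfbr2 to Tgfbr1 differed by 0.0035 (exact p = 1, adjusted 1) and that of Tgfbr3 to Tgfbr1 by 0.11 (exact p = 0.571, adjusted 0.686). The ratio of Ltbp2 to Ltbp1 differed by -0.45 (exact p = 0.4, adjusted 0.6).

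Of the latent ligand binding proteins, Ltbp1 (ENSMUSG00000001870, mm10 17:75005568-75392512, plus strand) binds the latent complex covalently and anchors it to the matrix. It was measured at 222, 151, 262 and 215 normalized counts in Brap LKO livers and at 52.4, 104, 106 and 95.2 in Brap F/F livers. All Brap LKO livers lay above all controls, and Brap F/F replicate 1 was the lowest of the 8. Means were 213 ± 45.9 and 89.4 ± 25.1 (SD, n = 4). On the log2 scale Ltbp1 differed by 1.27, with a 95% confidence interval of 0.71 to 1.82, and stood just over the threshold (limma, Benjamini-Hochberg adjusted p = 0.0584; exact permutation p = 0.0286).

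Ltbp2 (ENSMUSG00000002020, mm10 12:84783212-84876532, minus strand) encodes a microfibril protein that, unlike LTBP1, is not known to bind latent TGF-β. Its levels were 52.8, 39.9, 42.5 and 115 normalized counts in Brap LKO livers and 35.3, 25.4, 27.3 and 41.2 in Brap F/F livers. The groups overlapped, and 1 liver, Brap LKO replicate 4, stood far above the other 7. The log2 fold change of 0.82 (95% confidence interval 0.07 to 1.57; limma, Benjamini-Hochberg adjusted p = 0.283; exact permutation p = 0.0571) became 0.48 without that liver (adjusted p = 0.400). An exon of D030025P21Rik on the opposite strand covers 9.34% of the Ltbp2 exons.

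Tgfbr2 and Tgfbr1 were the most abundant of the 10 genes, and all 3 receptors had small differences. Tgfbr1 (ENSMUSG00000007613, mm10 4:47353222-47414931, plus strand), the type I receptor kinase, was measured at 1239, 1134, 1219 and 1293 normalized counts in Brap LKO livers and at 1195, 1058, 1074 and 1066 in Brap F/F livers. Brap F/F replicate 1 lay within the Brap LKO range and the other 3 controls below it. The log2 fold change was 0.15 (limma, 95% confidence interval -0.0027 to 0.31, Benjamini-Hochberg adjusted p = 0.325; exact permutation p = 0.0571).

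Tgfbr2 (ENSMUSG00000032440, mm10 9:116084293-116175360, minus strand), the ligand-binding type II receptor, was measured at 1737, 1589, 1707 and 1682 normalized counts in Brap LKO livers. The Brap F/F livers gave 1715, 1253, 1446 and 1650, a wider spread that covered most of the Brap LKO range. Its log2 fold change was 0.16, with a 95% confidence interval from -0.07 to 0.38 (limma, Benjamini-Hochberg adjusted p = 0.464; exact permutation p = 0.229).

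Tgfbr3 (ENSMUSG00000029287, mm10 5:107106570-107289629, minus strand) encodes betaglycan, a co-receptor that presents the Tgfb2 product to the signalling receptors. Its levels were 494, 367, 507 and 409 normalized counts in Brap LKO livers and 304, 366, 393 and 407 in Brap F/F livers. Of the Brap LKO livers, 3 lay above all controls, replicate 4 by a narrow margin, and replicate 2 lay among them. The log2 fold change was 0.27 (limma, 95% confidence interval -0.03 to 0.56, Benjamini-Hochberg adjusted p = 0.361; exact permutation p = 0.114). Gm43422 lies on the same strand and shares 4.54% of the Tgfbr3 exon length, so reads there may belong to either gene. These intervals bound the receptors' differences: their upper limits were 0.31, 0.38 and 0.56 on the log2 scale, and a p over the threshold does not show equal levels.

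The feedback genes had means of 719 ± 90.3 and 610 ± 175 for Smad7 and of 569 ± 77.3 and 476 ± 119 for Skil in Brap LKO and Brap F/F livers (SD, n = 4), with the larger spread among the controls. Smad7 (ENSMUSG00000025880, mm10 18:75367529-75395935, plus strand), the inhibitory SMAD that recruits ubiquitin ligases to the receptors, was measured at 742, 789, 587 and 758 normalized counts in Brap LKO livers and at 457, 731, 788 and 461 in Brap F/F livers. Brap F/F replicates 1 and 4 lay below all Brap LKO livers, and the other pair at Brap LKO level. The log2 fold change was 0.27 (limma, 95% confidence interval -0.16 to 0.71, Benjamini-Hochberg adjusted p = 0.513; exact permutation p = 0.257).

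Skil (ENSMUSG00000027660, mm10 3:31095058-31122577, plus strand) encodes the SMAD co-repressor SnoN. It was measured at 496, 511, 649 and 622 normalized counts in Brap LKO livers and at 410, 600, 550 and 345 in Brap F/F livers, again with replicates 1 and 4 as the low controls. The log2 fold change was 0.28 (limma, 95% confidence interval -0.12 to 0.68, Benjamini-Hochberg adjusted p = 0.464; exact permutation p = 0.257). The same controls were low for the target gene Ccn2, at 168 and 163 against 742 and 628 normalized counts in Brap F/F replicates 2 and 3, and for Cdkn1a, at 196 and 124 against 2085 and 1052. Ccn2 and Cdkn1a were picked for naming after their values were seen. Targets went both ways between these controls. Fn1 was higher in Brap F/F replicates 1 and 4, at 120892 and 122083 normalized counts, than in replicates 2 and 3, at 76970 and 82711.

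**Figure D3:**
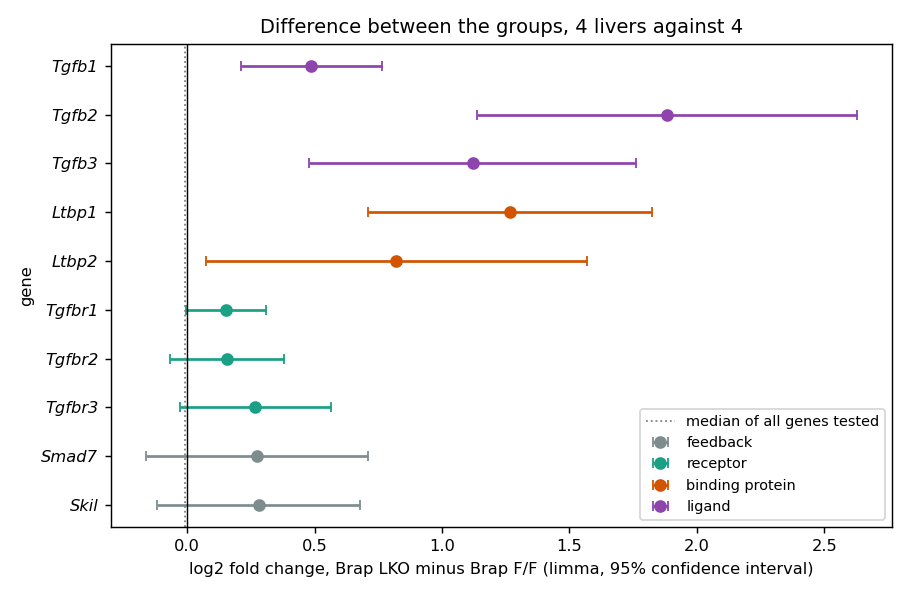
Difference between the groups for each of the 10 genes (horizontal axis, log2 fold change, Brap LKO minus Brap F/F), with the limma estimate as a point and its 95% confidence interval as a bar. All 10 estimates lie above 0, from 0.15 for Tgfbr1 to 1.88 for Tgfb2, and the intervals of the receptors, Smad7 and Skil include 0.

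Per 1000 exon bases, the order of the 10 genes was nearly the same in both groups. In Brap F/F livers the mean levels were 185 for Tgfbr2, 168 for Tgfbr1, 135 for Smad7, 56.2 for Tgfbr3, 49.1 for Skil and 43.0 for Tgfb1. Ltbp1 at 8.36, Tgfb3 at 7.39, Ltbp2 at 3.95 and Tgfb2 at 1.49 normalized counts per 1000 exon bases followed. The ranges over livers overlapped between neighbours in this order except between Smad7 and Tgfbr3, between Tgfb1 and Ltbp1, and between Ltbp2 and Tgfb2. In Brap LKO livers Tgfb1, at 60.4, stood ahead of Skil, at 58.7, with overlapping ranges, and Tgfb2, at 5.65, was still last. There the ranges of Ltbp2 and Tgfb2 overlapped.

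The groups were also compared within the series of animal numbers, where 1 side always has a single liver, and these differences are given without a test. The log2 difference in the lower and the higher series was 1.44 and 2.35 for Tgfb2, 0.73 and 0.40 for Tgfb1, 1.51 and 1.48 for Tgfb3, and 1.96 and 1.08 for Ltbp1. For these 4 genes the direction was fixed by the groups standing apart. The other values were 0.33 and 1.88 for Ltbp2, 0.0019 and 0.28 for Tgfbr1, -0.03 and 0.22 for Tgfbr2, 0.57 and 0.07 for Tgfbr3, 0.61 and 0.24 for Smad7 and 0.41 and 0.36 for Skil. Tgfbr2 in the lower series was the 1 difference below 0. With the series as a covariate in limma, the Benjamini-Hochberg adjusted p was 0.0894 for Tgfb2, 0.137 for Tgfb1, 0.0367 for Tgfb3 and 0.0388 for Ltbp1.

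Other processing choices moved these 4 genes across the threshold. Their direction stayed, but leaving out a liver could not turn it, since the groups stood apart. In edgeR's quasi-likelihood test on the recovered reads, 2 of the 10 genes passed, Tgfb2 with an adjusted p of 0.0400 and Ltbp1 with 0.0491, against 0.703% of all genes called higher. In DESeq2 4 passed, with adjusted p of 0.000157 for Tgfb2, 8.97e-05 for Ltbp1, 0.0156 for Tgfb3 and 0.0195 for Tgfb1, against 3.02% of all genes. Tgfb2 was past the threshold in 11 of 21 other settings, Ltbp1 in 5, Tgfb3 in 3 and Tgfb1 in 2, and the other 6 genes in 0.

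**Figure D4:**
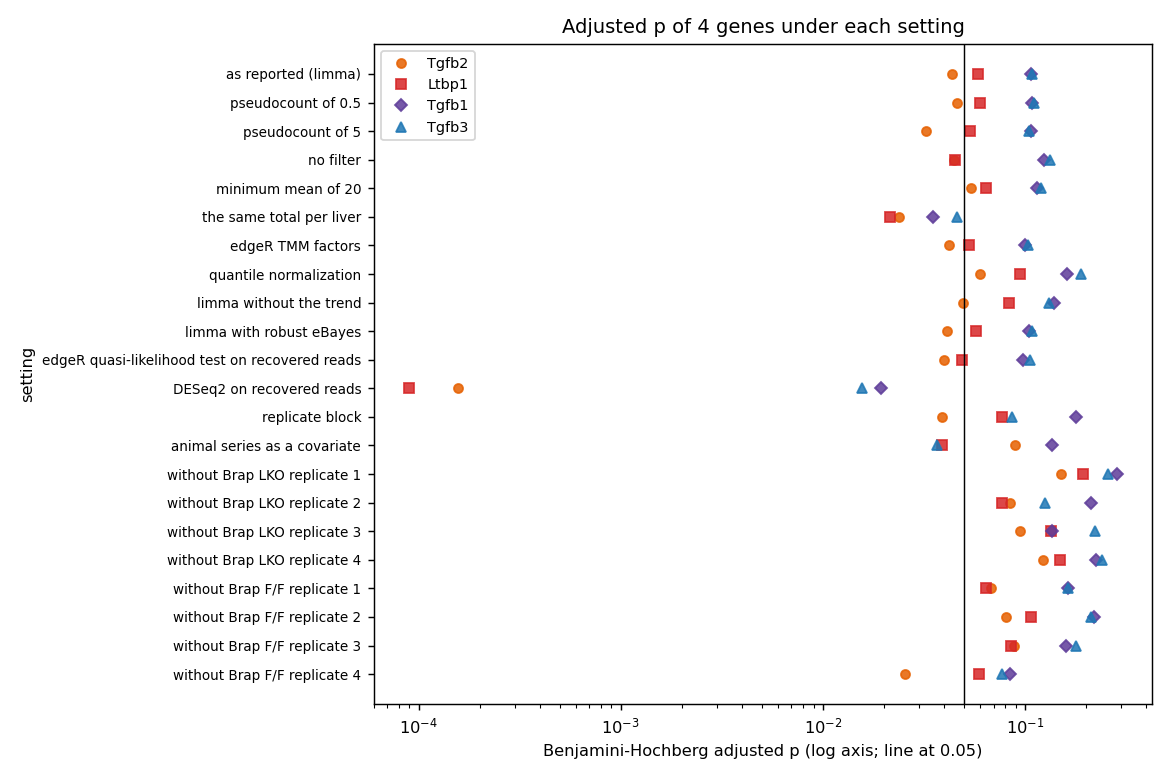
Benjamini-Hochberg adjusted p (horizontal log axis, line at 0.05) of Tgfb2, Ltbp1, Tgfb1 and Tgfb3 as reported and under each of 21 other settings (rows). Tgfb2 lies left of the line as reported and in 11 of the others, and most points of the fits without 1 liver lie right of it.

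Other genes of the pathway were described by lists, which share some genes and were chosen with results of these data known. Of 21 tested genes for latency and activation of TGF-β, 1 was higher and 0 were lower, against 0.664% and 0.104% of all genes. A log2 fold change above 0 was found for 16, against 48% of all genes, and the median was 0.13. An unadjusted p under 0.05 in limma was found for 8 of the 21, against 15.8% of all genes. The higher one was Mmp2, a gelatinase that can cleave latent TGF-β and is itself made by activated stellate cells. Mmp2 was measured at 159, 102, 166 and 190 normalized counts in Brap LKO livers and at 22.8, 47.8, 50.5 and 54.9 in Brap F/F livers (log2 fold change 1.83 ± 0.295 SE; limma, Benjamini-Hochberg adjusted p = 0.0331). The call held when Brap F/F replicate 1 or 4 or replicate 2 of Brap LKO was left out, and the adjusted p in limma reached 0.125 when another liver was. The most abundant genes of this list, the integrin subunit Itgb1, the convertase Furin and plasminogen (Plg), had log2 fold changes of -0.01, -0.24 and -0.0041 and did not pass. Every Brap LKO liver lay above every control for 5 of the 21 genes, against 5.48% of all genes, among them Ltbp3 and Itgb8, which are named here after their values were seen. Ltbp3, which also binds latent ligand, was measured at 151, 144, 167 and 214 normalized counts in Brap LKO livers and at 38.8, 83.4, 107 and 88.3 in Brap F/F livers (limma, Benjamini-Hochberg adjusted p = 0.106).

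Of 27 tested SMADs and other signalling and feedback genes, 0 passed in either direction in limma or edgeR and 3 were higher in DESeq2. An unadjusted p under 0.05 in limma was found for 8 of the 27, against 15.8% of all genes, 14 had a log2 fold change above 0, against 48%, and the median was 0.02. The signal transducers Smad2, Smad3 and Smad4, named after their values were seen, had log2 fold changes of -0.05, 0.29 and -0.01. The most abundant members, the co-receptor endoglin (Eng), the ubiquitin ligase Wwp1 and the SMAD phosphatase Ppm1a, had values of 0.40, -0.18 and -0.15. Pmepa1, a feedback inhibitor induced by TGF-β and named here after its values were seen, was measured at 115, 96.0, 109 and 156 normalized counts in Brap LKO livers and at 62.7, 68.1, 59.9 and 71.6 in Brap F/F livers. The groups of livers did not overlap, and the difference of 0.83 on the log2 scale missed the threshold (limma, Benjamini-Hochberg adjusted p = 0.0591).

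Among 29 tested TGF-β target genes, 1 was higher, Mmp2 again, and 0 were lower, against 0.664% and 0.104% of all genes. A log2 fold change above 0 was found for 24, against 48% of all genes, and the median was 0.39. For 13 of the 29 the unadjusted p in limma was under 0.05, against 15.8% of all genes. Fibronectin (Fn1), Bhlhe40 and N-cadherin (Cdh2), the most abundant of the list, had log2 fold changes of -0.09, 0.04 and 0.05. In the activin and BMP branch, 1 of 35 tested genes was higher and 0 were lower. Of the 35, 26 had a log2 fold change above 0, against 48% of all genes, and the median was 0.17. The number with an unadjusted p under 0.05 in limma was 6, near the 15.8% of all genes. The higher one was Fstl1, a secreted follistatin-like glycoprotein, at 217, 164, 257 and 250 normalized counts in Brap LKO and 94.6, 77.3, 120 and 123 in Brap F/F livers (log2 fold change 1.09 ± 0.192 SE; limma, Benjamini-Hochberg adjusted p = 0.0435). This call held when Brap F/F replicate 4 or replicate 2 of Brap LKO was left out, and the adjusted p in limma reached 0.147 when another liver was. The protease Bmp1, hepcidin (Hamp) and its regulator Tmprss6, the most abundant of that branch, had log2 fold changes of -0.11, -0.05 and -0.07.

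Bulk RNA cannot tell fewer or more cells of a type from less or more RNA per cell. Several marker lists of cell types other than hepatocytes had medians above that of all genes, the direction seen for the ligands and Ltbp1. Over all genes, 48% had a log2 fold change above 0, 15.8% had an unadjusted p under 0.05 in limma, and 0.664% were called higher. Of 20 stellate cell and fibroblast markers, 18 had a log2 fold change above 0 (median 0.53), 9 had an unadjusted p under 0.05, and Pdgfrb and Fbln2 passed in limma (Benjamini-Hochberg adjusted p = 0.0494 and 0.0402). Their summed level ranged from 9781 to 14569 normalized counts in Brap LKO and from 6470 to 11083 in Brap F/F livers. This list was uneven. Its log2 fold changes ran from -0.12 for Lrat and -0.07 for Colec11, the 2 below 0, to 1.44 for Col1a1. All 12 cholangiocyte markers had a log2 fold change above 0 (median 0.95) and 9 an unadjusted p under 0.05 in limma, with sums of 3532 to 6970 and 1598 to 4239, and Cftr and Cldn4 passed (adjusted p = 0.0331 and 0.0494). Both had no read in Brap F/F replicate 1, and the other controls held no more than 2.10 normalized counts of either. The Cftr call held when Brap LKO replicate 3 or replicate 4 of Brap F/F was left out and was lost without any other liver. The Cldn4 call held without Brap LKO replicate 2 and was lost without each of 6 other livers, and it was not tested without replicate 4 of Brap LKO, where its mean fell under the minimum.

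For macrophages and monocytes, 13 of 14 markers had a log2 fold change above 0 (median 0.55, sums 6357 to 11393 and 6423 to 8927), 6 had an unadjusted p under 0.05, and Gpnmb passed (limma, Benjamini-Hochberg adjusted p = 0.0480). Of these calls, each of Pdgfrb, Fbln2 and Gpnmb was lost without any single liver other than Brap F/F replicate 4. The 12 sinusoidal endothelium markers all had values above 0, with a median of 0.18, and 0 passed in limma, edgeR or DESeq2 (0 at an unadjusted p under 0.05). Among hepatocyte markers 3 of 10 were above 0, with a median of -0.34, sums of 2519900 to 3439300 in Brap LKO and 3114930 to 4568910 in Brap F/F livers, and 0 called by any of the 3 tools (2 at an unadjusted p under 0.05). Lymphocyte markers were above 0 for 10 of 11 tested genes (median 0.43) and platelet markers for 2 of 3 (median 0.18), and 0 of either passed in limma or edgeR (2 and 0 at an unadjusted p under 0.05), against 1 and 0 in DESeq2. For hepatocyte and lymphocyte markers, the counts at an unadjusted p under 0.05 in limma lay near the 15.8% of all genes. The part of these cell types in the differences of Tgfb2, the other ligands and Ltbp1 was not tested.

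**Figure D5:**
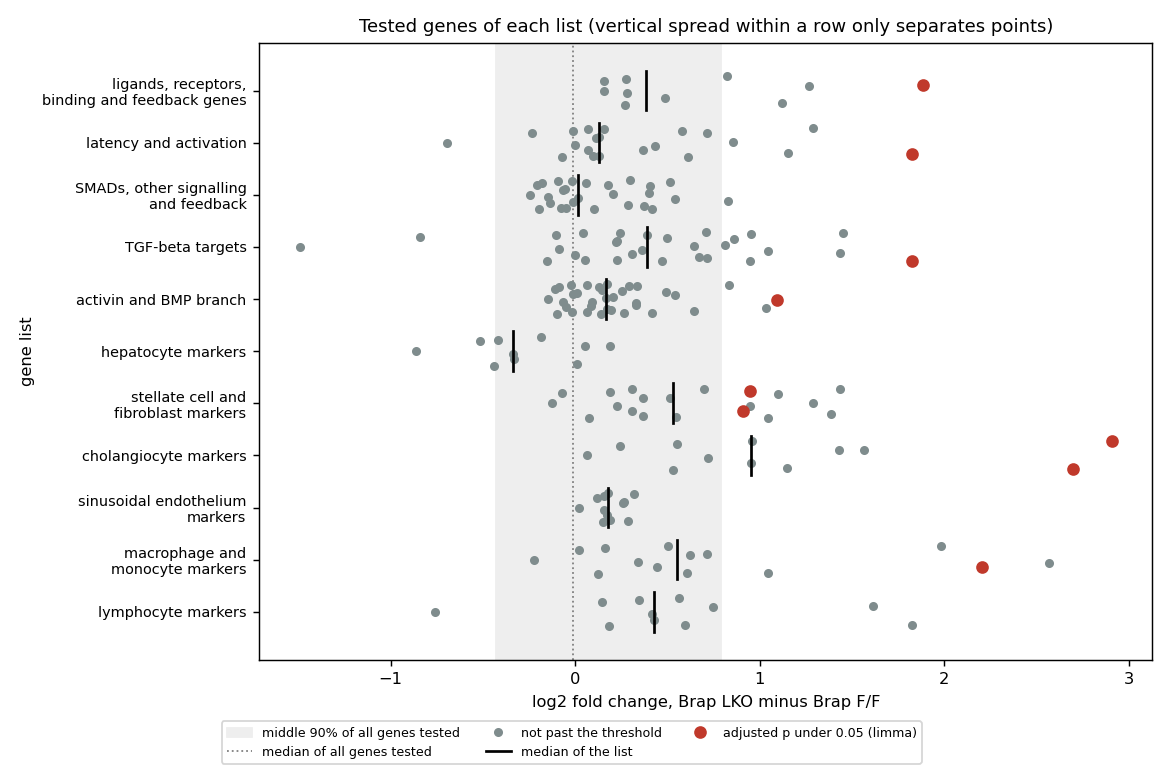
Log2 fold change (horizontal axis, Brap LKO minus Brap F/F) of each tested gene of the 10 genes, 4 pathway lists and 6 cell type marker lists (rows), with a bar at each list's median and red points for genes with an adjusted p under 0.05 in limma. The medians are 0.38 for the 10 genes, 0.39 for the targets, 0.53 for stellate cell markers and 0.95 for cholangiocyte markers, against -0.01 for all genes. Some targets are also stellate cell or cholangiocyte markers, so these rows are not independent.

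The genes whose log2 values over the 8 livers were most like those of each gene were looked up among 12754 genes with a mean of at least 20 normalized counts. Pearson's r is given as a description, since the livers share their groups, libraries and scaling. Tgfb2 had an r of 0.981 with D630003M21Rik. For Tgfb3 the closest were the collagen VI chain Col6a2 and Ptk7 (both r = 0.992), and for Ltbp1 the protease inhibitor Timp2 (r = 0.993) and the integrin subunit Itga8 (r = 0.990). Tgfb1 was closest to Prag1 (r = 0.986) and Gask1a (r = 0.976), and Ltbp2 to Abhd10 (r = 0.978) and Map3k1 (r = 0.974).

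Of the receptors, Tgfbr1 was most like the protease gene Adam10 (r = 0.972) and Nexn (r = 0.968), Tgfbr2 most like the purinergic receptor P2ry12 (r = 0.984) and the exportin Xpo1 (r = 0.974), and Tgfbr3 most like 2610008E11Rik (r = 0.988) and Lrrk2 (r = 0.974). Smad7 was closest to Olfr1372-ps1 (r = 0.975) and to Rgs5 (r = 0.974), a pericyte and stellate cell marker. Skil was closest to Mr1 (r = 0.952) and Rbm27 (r = 0.936), the lowest values of the 10 genes.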

How the data were processed

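RNA of the left liver lobe of 8 mice, 4 of each genotype, was sequenced from libraries of the NuGEN Universal Plus mRNA kit. Groups and replicate numbers come from the titles in the labels, and all 8 columns of the table were used. The authors aligned reads to mm10 with STAR 2.6.0c, and deposited a signal per gene and liver, its read number over that liver's size factor from DESeq2. The counting tool, the annotation and the use of strand are not given in the sources used here. All values (100%) were whole multiples of 1 read (tolerance 1e-06), so reads were recovered. A second deposited table holds the authors' own fold changes and p-values, which were not used.

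Values were compared as log2(normalized count + 1) with limma 3.58.1 in R 4.3.3 (lmFit, eBayes with a mean-variance trend) for 15352 genes with a mean of at least 5. Adjustment was by Benjamini-Hochberg over all of them, with a threshold of 0.05. Fold changes on this scale understate changes of low genes. For single values, exact permutation tests over livers (two-sided) were run. Intervals rest on the spread between livers, which the labels give as separate animals. The alternatives were other pseudocounts, filters, scalings and covariates, leaving out each liver, edgeR 4.0.16 and DESeq2 1.42.0. Scripts were tested on simulated data. Positions and exon lengths came from GENCODE for mm10 and promoters from RefSeq.

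The genes, lists and tests were chosen with earlier results of these data known. Named genes were the 10 genes, the genes past the threshold and the 3 most abundant of each list, Brap, and the 2 genes most like each of the 10. Smad2, Smad3, Smad4, Ltbp3, Itgb8, Pmepa1, Ccn2, Cdkn1a, Lrat, Colec11 and Col1a1 fall outside this rule and were chosen after their values were seen. Of the most abundant marker genes only albumin is given, and 1 of the genes most like Tgfb2 is not reported here.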

Additional observations from a re-analysis of the deposited data

Results flagged for a closer look

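Of 20 groups of 4 livers (10 genes in each genotype), 2 held a liver whose distance from its nearest neighbour exceeded the critical share of the group's range in Dixon's test. Chance flags about 1 in 20 such groups. Tgfbr1 in Brap F/F replicate 1 was at 1195 normalized counts, with the nearest other control at 1074, a share of 0.879. Ltbp2 in Brap LKO replicate 4 was at 115 normalized counts, with the nearest other Brap LKO liver at 52.8, a share only just over that critical value.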

How the results depend on the processing

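Under 21 other settings all 10 genes kept a higher mean in Brap LKO livers, and of 210 values for single genes 190 also kept their side of the threshold, 10 lost it and 10 gained it. Many of these settings could not turn a direction. For Tgfb1, Tgfb2, Tgfb3 and Ltbp1 it was fixed in the fits without 1 liver. Other filters, other variance settings in limma and the replicate block left each log2 fold change as reported. The number of the 10 genes called higher, 1 as reported, was 2 with no filter, 0 with a minimum mean of 20, 4 with the same total per liver, 0 with quantile normalization, 2 with edgeR, 4 with DESeq2, 2 with the animal series as a covariate, 2 at an adjusted p under 0.1 and 0 to 1 without 1 liver. For Tgfb2 the adjusted p was 0.0543 with a minimum mean of 20 and 0.0598 with quantile normalization. Over all genes, the 102 called higher became 459 with the same total per liver, 62 with quantile normalization, 455 with DESeq2, 283 at an adjusted p under 0.1 and 11 to 178 without 1 liver (11 without Brap LKO replicate 1, 178 without Brap F/F replicate 4). The 16 called lower became 9 with a minimum mean of 20, 170 with DESeq2, 64 at an adjusted p under 0.1 and 4 to 54 without 1 liver. All 84 values of the ratios stayed within 1 SD (within groups) of the reported value, while their adjusted p could hardly pass in any setting. The ratios of Tgfbr2 and of Tgfbr3 to Tgfbr1 did not always keep their sign. Without Brap F/F replicate 2 the log2 fold change was 0.069 for Tgfbr2 and 0.136 for Tgfbr1. Without Brap F/F replicate 1 it was 0.180 for Tgfbr3 and 0.195 for Tgfbr1. Of the counts for the lists, 379 stayed within 1.5 times the reported count and 83 did not. Counts of 0 that stayed at 0 are among the 379, so this number says little about stability. The causes of these moves were not tested. Replicate numbers gave no clear pairing of the livers. The correlation of deviations ran from -0.129 to 0.292 over 4 pairs of the same number and from -0.293 to 0.199 between different numbers. With the replicate block, 80 genes were called higher and 15 lower, and Tgfb2 stayed the 1 called of the 10 genes (adjusted p = 0.0390, limma). Some livers, among them Brap LKO replicates 2, 3 and 4, correlated best with their own number, and others, such as Brap LKO replicate 1, did not. Depth limits Tgfb2 most, at 4 to 13 reads in each control liver.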
